A study of Mus musculus with 8 samples.

Results

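Aminoacyl-tRNA synthetases join each amino acid to its transfer RNA, the step that loads the ribosome with its building blocks. The 36 genes described here were taken by symbol, and all 36 were present among the 24013 symbols of the expression table. They comprise 20 genes of the cytosolic enzymes and 16 genes, with names ending in 2, of the enzymes that work inside mitochondria. The cells came from the gut epithelium of mice with the alleles Lyz1CreER; R26R-tdT on a mixed C57/BL6 and 129 background, aged 8 to 14 weeks, all given 1 dose of 10 mg tamoxifen, which marks cells expressing the Paneth cell lysozyme gene Lyz1, and their descendants, with the red protein tdTomato. Irradiated CD24- cells (3 libraries) were tdTomato-positive cells outside the Paneth cell gate 5 days after irradiation, called derivatives by the submitters. Irradiated CD24+ cells (3 libraries) were tdTomato-positive cells inside that gate at the same time, and non-irradiated CD24+ cells (2 libraries) were their counterpart without irradiation. A CD24- group without irradiation was not analysed here, so irradiated CD24- and non-irradiated CD24+ cells differ in both gate and irradiation.

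Most amino acids have a cytosolic enzyme and a separate mitochondrial one encoded by another nuclear gene, while Kars and Gars each encode both forms, and Eprs carries 2 enzymes in a single protein. Phenylalanine is charged in the cytosol by an enzyme of 2 subunits, Farsa and Farsb. The enzymes fall into class I and class II, whose catalytic domains have unrelated folds, and 8 of the cytosolic genes (Dars, Eprs, Iars, Kars, Lars, Mars, Qars and Rars) encode members of the multisynthetase complex, held together by the scaffold proteins Aimp1, Aimp2 and Eef1e1. Paneth cells make large amounts of secreted protein, and several cytosolic synthetase genes are known targets of Atf4, the transcription factor of the amino acid response.

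Sites through which Atf4 acts share the letters TGATGNAA, where N is any base, or TTNCATCA on the other strand. RefSeq promoter sequences of build GRCm38.p6 were held for 27 members, 13 cytosolic and 14 mitochondrial. There were no entries for Cars, Hars, Lars, Nars, Rars, Vars, Wars, Hars2 and Pars2. In the 250 bases before the annotated start these letters occurred on either strand for 3 of the 13 cytosolic members and for none of the 14 mitochondrial ones, against 3.91% of 27025 genes. The 3 matches are shown because these genes are set beside known targets of the amino acid response below. The promoters of those targets were not examined singly. They are those of Aars (alanine, chr8:111033670-111033797, plus strand), Gars (glycine, chr6:55037911-55038000, plus strand) and Tars (threonine, chr15:11399659-11399733, minus strand), each printed 5′ to 3′ with the matched letters in capitals and up to 60 bases on either side, ending at the latest at the base before the start.
Aars: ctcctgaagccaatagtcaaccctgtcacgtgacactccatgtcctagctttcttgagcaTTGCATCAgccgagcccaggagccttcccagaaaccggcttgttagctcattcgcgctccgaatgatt
Gars: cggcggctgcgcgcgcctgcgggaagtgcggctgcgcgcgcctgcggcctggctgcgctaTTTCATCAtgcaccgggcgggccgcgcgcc
Tars: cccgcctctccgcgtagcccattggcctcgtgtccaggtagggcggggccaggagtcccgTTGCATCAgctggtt
A match is a stretch of letters in the reference genome and no measurement of binding.

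Values are FPKM, fragment counts normalised to transcript length and library depth by the authors. The marking gene Lyz1 had a mean ± SD of 1258 ± 1162 FPKM over the 3 irradiated CD24- libraries, 33888 ± 2497 over the 3 irradiated CD24+ libraries and 33954 ± 21126 over the 2 non-irradiated CD24+ libraries. Cd24a, the gene of the sorted protein, averaged 77.4 ± 39.9, 698 ± 44.7 and 642 ± 29.9 FPKM in these groups, and Epcam, the epithelial sort marker, averaged 669 ± 69.8, 258 ± 20.05 and 183 ± 60.9 FPKM. Ptprc, the gene of the leukocyte protein CD45, did not exceed 0.539 FPKM in any library. The 8 Paneth markers summed to 2040 to 13378 FPKM in irradiated CD24- cells, 169521 to 186457 in irradiated CD24+ cells and 176498 to 253280 in non-irradiated CD24+ cells, and the 10 enterocyte markers to 16429 to 35740, 837 to 1349 and 522 to 2379. The CD24- libraries thus carried the markers of another cell type, absorptive enterocytes, far above the CD24+ libraries, and its part in the results below was not tested. Fewer cells of a type and less RNA per cell cannot be told apart in such bulk libraries. All FPKM of a library summed to 540467 to 582799 in irradiated CD24- cells, 1329220 to 1429910 in irradiated CD24+ cells and 1435060 to 1638350 in non-irradiated CD24+ cells, so the choice of scaling bears on every direction given here.

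All 36 genes were detected in every library. The cytosolic genes stood well above the mitochondrial ones in each group. Their median was 29.8, 27.5 and 26.9 FPKM in the irradiated CD24- libraries, 22.9, 26.9 and 28.0 in the irradiated CD24+ libraries and 15.5 and 24.6 in the non-irradiated CD24+ libraries. The mitochondrial median was 9.84, 8.88 and 6.16 FPKM in irradiated CD24- libraries, 4.87, 5.80 and 5.37 in irradiated CD24+ libraries and 2.88 and 5.01 in non-irradiated CD24+ libraries. Between the gates in irradiated mice, the mitochondrial medians did not overlap as deposited, whereas the cytosolic ones did. Median-of-ratios scaling divides each library by a factor, 1.33 to 1.47 in irradiated CD24- and 0.858 to 0.991 in irradiated CD24+ libraries. Divided by these factors, the mitochondrial medians overlapped, and the cytosolic ones were all lower in irradiated CD24- libraries.

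In irradiated CD24- cells the most abundant cytosolic gene was Nars (asparagine), at 98.5 ± 7.40 FPKM (SD, n = 3), and the least abundant was Cars (cysteine), at 9.74 ± 1.14. The next gene was Qars (glutamine), at 81.8 ± 8.93, whose highest library (91.1) was level with the lowest of Nars (91.0). Wars (tryptophan) led both CD24+ groups, with 70.3 ± 17.3 FPKM in irradiated and 71.1 ± 36.3 in non-irradiated CD24+ cells, where Nars, at 60.5 ± 5.70 and 58.4 ± 20.3, lay within its spread. In irradiated CD24- cells Wars came after Nars, Qars, Rars, Gars, Kars and Tars. Among mitochondrial genes other than Lars2, Rars2 (arginine) and Fars2 (phenylalanine) led in irradiated CD24- cells, at 25.1 ± 4.55 and 23.1 ± 4.37 FPKM, and could not be separated by their spread. Pars2 (proline) was the lowest member in every group, at 2.45 ± 0.683, 1.53 ± 0.292 and 0.881 ± 0.391 FPKM.

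Lars2, the mitochondrial leucine enzyme, stood apart at 745, 1064 and 435 FPKM in irradiated CD24- cells, 437, 743 and 439.5 in irradiated CD24+ cells and 463 and 450.4 in non-irradiated CD24+ cells. No other mitochondrial member exceeded 28.2 FPKM in any library. Rn45s, the ribosomal RNA precursor, was at 522, 1211 and 351 FPKM in irradiated CD24- cells, 368, 381 and 408 in irradiated CD24+ cells and 277 and 298 in non-irradiated CD24+ cells. Both were highest in irradiated CD24- replicate 2. The part of ribosomal RNA reads in the Lars2 value was not tested, and Lars2 is therefore also left out of class summaries where it could weigh on them.

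**Figure D1:**
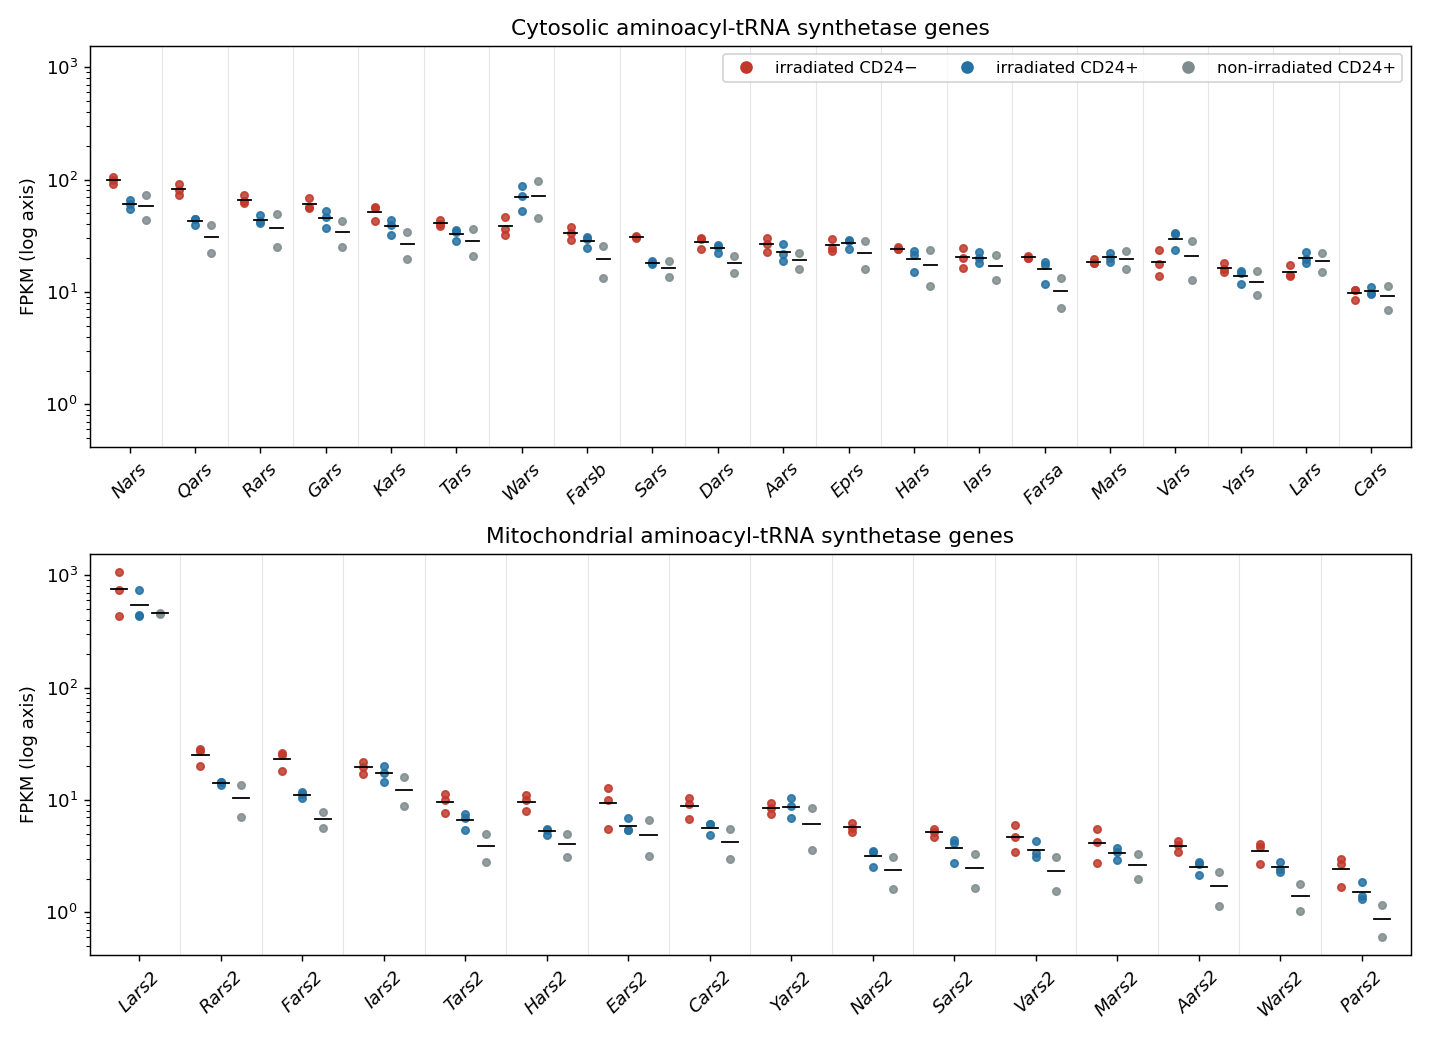
FPKM (log axis) of the 20 cytosolic and 16 mitochondrial synthetase genes, with a point for each library of irradiated CD24- (left), irradiated CD24+ (middle) and non-irradiated CD24+ cells (right) and a bar at the group mean. Lars2 lies between 435 and 1064 FPKM, while the other mitochondrial genes stay at or below 28.2.

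The first comparison asks how labelled cells outside the Paneth gate differed from those inside it after irradiation. As deposited, Qars, Sars (serine) and Nars among the cytosolic genes and Fars2, Rars2, Hars2 (histidine) and Nars2 (asparagine) among the mitochondrial genes were higher in irradiated CD24- than in irradiated CD24+ cells, and Wars was lower. Thus 3 of 20 cytosolic and 4 of 16 mitochondrial genes passed the test upward, where 48.6% of the 11190 genes tested did, and 1 cytosolic and no mitochondrial gene passed downward, where 7.27% of all genes did. At an unadjusted p under 0.05, 10 of the 36 were higher, against 52.5% of all genes, and 2, both cytosolic, were lower, against 8.14%. In 16 of the 36 every irradiated CD24- library lay above every irradiated CD24+ library, as in 59.1% of all genes, and in 3 (Lars, Vars and Wars) every one lay below, as in 9.31%. The test was limma on log2(FPKM + 1) with a Benjamini-Hochberg adjusted p under 0.05, and fold changes on this scale understate the change of low genes.

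Qars was at 91.1, 81.1 and 73.3 FPKM in irradiated CD24- cells, against 39.6, 44.9 and 44.3 in irradiated CD24+ cells. The groups did not overlap, and the log2 fold change was 0.91 ± 0.24 (SE; adjusted p = 0.00762). Sars was at 31.4, 30.9 and 30.4 FPKM in irradiated CD24- cells, against 17.6, 18.2 and 18.7 in irradiated CD24+ cells, or a log2 change of 0.73 ± 0.19 (SE; adjusted p = 0.00667). Its libraries agreed closely within each group, with SDs of 0.542 and 0.537 FPKM. Nars was at 106, 91.0 and 98.6 FPKM in irradiated CD24- cells, against 54.6, 61.1 and 65.9 in irradiated CD24+ cells, or a log2 change of 0.69 ± 0.24 (SE; adjusted p = 0.0284). The call of Nars was lost whenever any 1 of the 6 irradiated libraries was left out (adjusted p up to 0.117), while Qars and Sars passed in all 8 such fits. Under quantile normalization all 3 were lower in irradiated CD24- cells, at -0.27, -0.22 and -0.53 for Qars, Sars and Nars.

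Wars was at 46.2, 32.0 and 36.7 FPKM in irradiated CD24- cells, against 52.4, 71.7 and 86.9 in irradiated CD24+ cells. Every irradiated CD24- library lay below every irradiated CD24+ library, with a log2 change of -0.85 ± 0.31 (SE; adjusted p = 0.0359), which was -1.40 after median-of-ratios scaling and turned to 0.40 after rescaling to TPM (FPKM divided to a common sum). The call was lost without irradiated CD24- replicate 2 or 3 or without irradiated CD24+ replicate 2 or 3 (adjusted p up to 0.128). Vars, the valine enzyme, was at 23.5, 17.9 and 13.9 FPKM in irradiated CD24- cells, against 23.7, 33.2 and 32.6 in irradiated CD24+ cells. Its log2 fold change of -0.68 ± 0.30 (SE) missed the threshold (adjusted p = 0.0752). With the replicate number as a block Vars passed, and that fit gave 2 cytosolic genes lower, where 8.18% of all genes were. Rars, the arginine enzyme, was at 72.8, 64.3 and 61.4 FPKM in irradiated CD24- cells, against 40.9, 42.4 and 48.0 in irradiated CD24+ cells. These groups did not overlap either, yet its log2 fold change of 0.58 ± 0.26 (SE) had an adjusted p of 0.0743.

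Fars2 had the largest log2 fold change of the 36. It was at 26.1, 25.1 and 18.1 FPKM in irradiated CD24- cells, against 10.3, 11.7 and 11.3 in irradiated CD24+ cells, or a log2 change of 0.98 ± 0.21 (SE; adjusted p = 0.00199). It stayed above 0 after median-of-ratios scaling (0.44) and quantile normalization (0.16). Rars2 was at 28.2, 27.2 and 19.9 FPKM in irradiated CD24- cells, against 13.4, 14.4 and 14.6 in irradiated CD24+ cells, or a log2 change of 0.77 ± 0.24 (SE; adjusted p = 0.0180) that was -0.086 after quantile normalization. Hars2 was at 10.96, 10.0 and 7.89 FPKM in irradiated CD24- cells, against 4.92, 5.52 and 5.35 in irradiated CD24+ cells, or a log2 change of 0.75 ± 0.20 (SE; adjusted p = 0.00763). In both genes irradiated CD24- replicate 3 was the lowest of its group and still above all irradiated CD24+ libraries. Nars2 was at 5.19, 6.29 and 5.60 FPKM in irradiated CD24- cells, against 2.56, 3.43 and 3.48 in irradiated CD24+ cells, or a log2 change of 0.69 ± 0.20 (SE; adjusted p = 0.0135). Leaving out irradiated CD24- replicate 2 or irradiated CD24+ replicate 1 ended the calls of Rars2 and Nars2 (adjusted p up to 0.0687 and 0.0706), as did leaving out irradiated CD24- replicate 1 for Rars2, whereas Fars2 and Hars2 passed in all 8 fits.

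Aars2 (alanine) and Cars2 (cysteine) did not overlap between the gates but missed the threshold. Aars2 was at 4.30, 3.99 and 3.41 FPKM in irradiated CD24- cells, against 2.13, 2.67 and 2.83 in irradiated CD24+ cells (adjusted p = 0.0605). Cars2 was at 10.3, 9.21 and 6.72 FPKM in irradiated CD24- cells, against 4.83, 6.08 and 6.11 in irradiated CD24+ cells (adjusted p = 0.0690). Yars2, the tyrosine enzyme, was the 1 mitochondrial gene with a log2 fold change below 0, at -0.02 ± 0.26 (SE). It was at 9.36, 8.54 and 7.52 FPKM in irradiated CD24- cells, against 6.86, 8.83 and 10.4 in irradiated CD24+ cells, which overlapped. With replicate number as a block and only these 2 groups in the fit, 5 cytosolic and 9 mitochondrial genes were called higher, where 55.7% of all genes were, and 2 cytosolic genes lower, where 8.57% were.

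The median gene of all 11190 had a log2 fold change of 0.51 in this comparison. Of the 36 members 28 lay above 0 but only 10 above that median gene, 4 of them cytosolic and 6 mitochondrial. After median-of-ratios scaling, which brings the median gene to 0.04, 1 cytosolic gene (Qars) and 1 mitochondrial gene (Fars2) were called higher, where 32.4% of all genes were. With this scaling 10 cytosolic and 2 mitochondrial genes were called lower, where 24.4% of all genes were: Cars, Dars, Eprs, Farsb, Iars, Lars, Mars, Vars, Wars and Yars in the cytosol, and Iars2 and Yars2 in mitochondria. After rescaling to TPM 18 cytosolic and all 16 mitochondrial genes were called higher, where 89.4% of all genes were, and none lower, where 2.32% were. The cytosolic median lay below the mitochondrial one under each scaling tried. The cytosolic median log2 fold change was 0.22 and the mitochondrial one 0.45 as deposited, a difference of -0.23, which was -0.32 after median-of-ratios scaling, -0.09 as TPM and -0.66 after quantile normalization. Without Lars2 it was -0.24 as deposited, while as TPM the medians were then nearly level, at 1.451 cytosolic and 1.458 mitochondrial.

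**Figure D2:**
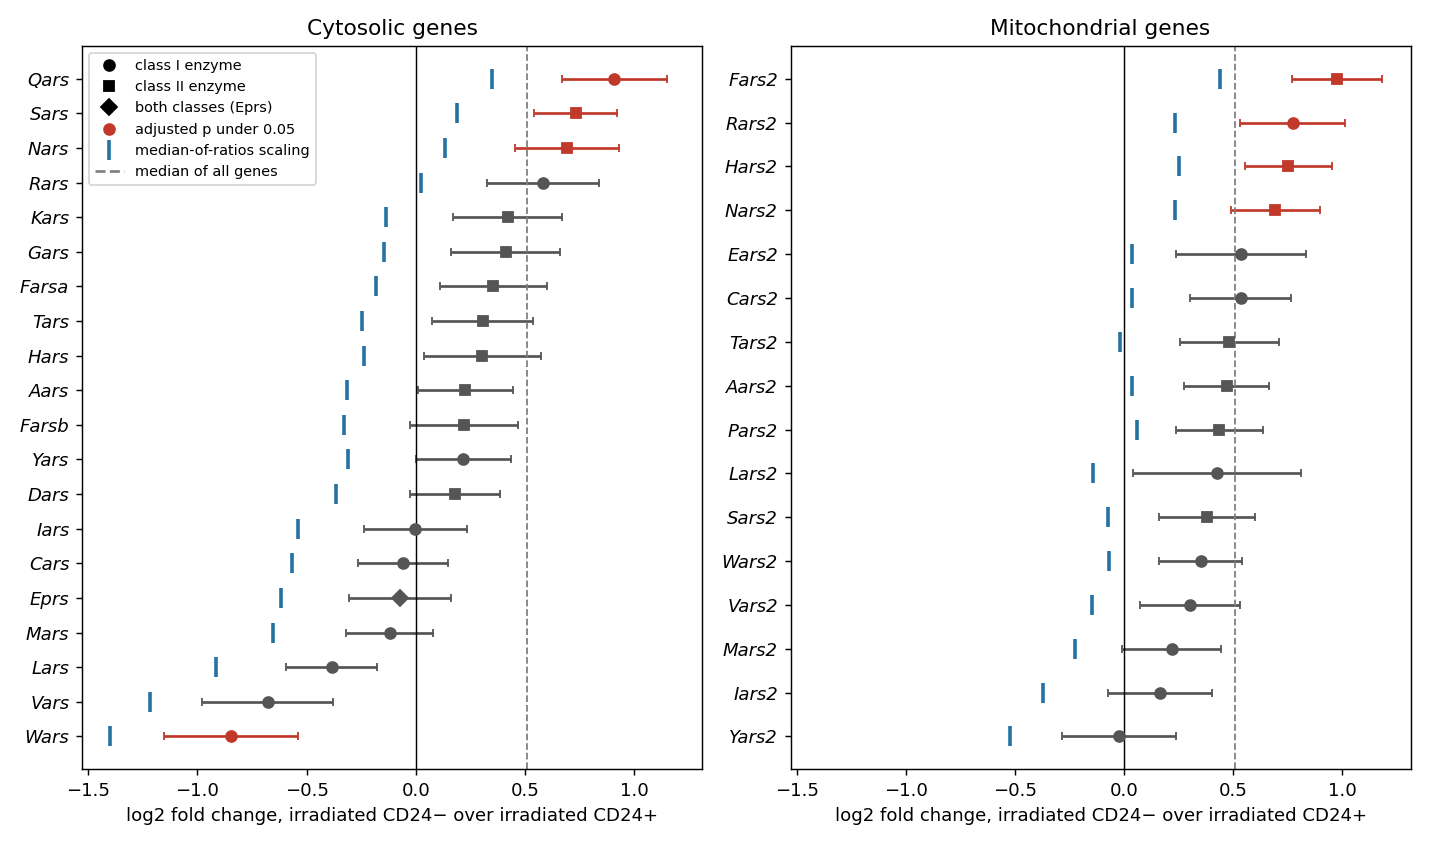
Log2 fold change of each member, irradiated CD24- over irradiated CD24+ cells, with SE bars, for cytosolic (left) and mitochondrial (right) genes, where the dashed line is the median of all genes (0.51) and blue ticks give the value after median-of-ratios scaling. Circles are class I enzymes, squares class II and the diamond Eprs, and red marks the 8 genes past the threshold.

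Within the cytosolic set the 2 enzyme classes had different medians. All 10 class II genes had log2 fold changes above 0 as deposited (0.18 to 0.73, median 0.33). Of them 2, Sars and Nars, passed the test, where 48.6% of all genes were higher. Of the 9 class I genes 6 lay below 0 (median -0.06), the exceptions being Qars, Rars and Yars, and Eprs, which holds an enzyme of each class, stood at -0.07. After median-of-ratios scaling both medians were below 0, at -0.21 for class II and -0.57 for class I. With it 2 class II and 7 class I genes were called lower, where 24.4% of all genes were. Qars alone was called higher, where 32.4% of all genes were. As TPM both medians were above 0, at 1.55 and 1.10. There 10 class II and 7 class I genes were called higher, where 89.4% of all genes were. The ratio of the class I median to the class II median within a library is free of scaling. It was 0.681, 0.564 and 0.542 in irradiated CD24- cells, 0.791, 0.833 and 0.787 in irradiated CD24+ cells and 0.972 and 0.948 in non-irradiated CD24+ cells. The 3 groups did not overlap. This split was seen after the values and is given without a test. The mitochondrial class I and class II medians were 0.35 and 0.48 as deposited.

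Of the 8 enzymes of the multisynthetase complex 4 lay above 0 (Qars, Rars, Kars and Dars) and 4 below (Iars, Eprs, Mars and Lars) as deposited. Qars alone passed, upward, where 48.6% of all genes were higher and 7.27% lower. After median-of-ratios scaling 6 of the 8 lay below 0. With it 1 was called higher and 5 lower, where 32.4% and 24.4% of all genes were. As TPM all 8 were called higher, where 89.4% of all genes were. The scaffold genes had a median log2 fold change of 0.81. Aimp1 was at 67.5, 76.2 and 63.2 FPKM in irradiated CD24- cells, against 34.1, 34.6 and 40.5 in irradiated CD24+ cells, or a log2 change of 0.90 ± 0.25 (SE; adjusted p = 0.00959). Aimp2 was at 33.5, 34.3 and 25.8 FPKM in irradiated CD24- cells, against 14.6, 17.6 and 19.8 in irradiated CD24+ cells, or a log2 change of 0.81 ± 0.27 (SE; adjusted p = 0.0225). Eef1e1 was at 19.4, 19.1 and 17.6 FPKM in irradiated CD24- cells, against 13.0, 13.1 and 16.6 in irradiated CD24+ cells, and missed the threshold (adjusted p = 0.233). All 3 scaffold genes thus lay higher without overlap between the gates as deposited, as did 59.1% of all genes. After median-of-ratios scaling Aimp1 still passed in limma (0.35, adjusted p = 0.0450), where 32.4% of all genes were higher. Aimp2 no longer passed (0.27, adjusted p = 0.146), and Eef1e1 turned to -0.16.

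The ratio of a cytosolic enzyme to the mitochondrial enzyme for the same amino acid, taken within a library, does not depend on library scaling. It could be formed for 13 amino acids. In irradiated CD24- cells it was lower than in irradiated CD24+ cells for 11 of the 13 (median log2 difference -0.38), and higher for serine and tyrosine. Wars/Wars2 had the largest difference, at 11.5, 8.33 and 13.7 in irradiated CD24- cells, 22.7, 25.5 and 35.7 in irradiated CD24+ cells and 43.8 and 54.5 in non-irradiated CD24+ cells. Vars/Vars2 was at 3.92, 3.797 and 4.03 in irradiated CD24- cells, 7.68, 7.75 and 9.58 in irradiated CD24+ cells and 8.20 and 9.30 in non-irradiated CD24+ cells. For both, all irradiated CD24- libraries lay below all CD24+ libraries, with log2 differences from irradiated CD24+ cells of -1.33 and -1.08.

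Cars/Cars2 was the third pair without overlap, at 1.01, 0.914 and 1.55 in irradiated CD24- cells, 2.001, 1.60 and 1.81 in irradiated CD24+ cells and 2.35 and 2.05 in non-irradiated CD24+ cells. Yars/Yars2 went the other way, at 1.92, 1.87 and 2.02 in irradiated CD24- cells, against 1.71, 1.67 and 1.48 in irradiated CD24+ cells. The other 9 pairs overlapped between the gates. With 3 libraries against 3, the smallest two-sided p of the exact permutation test is 0.1, and no pair could pass (smallest adjusted p over the 13 pairs 0.325). Against non-irradiated CD24+ cells the ratio was lower in all 13 pairs for irradiated CD24- cells, 11 of them without overlap. For irradiated CD24+ cells it was lower in all 13 too, 8 of them without overlap, although these comparisons share libraries. With 3 libraries against 2 the smallest p of the exact test is also 0.1, and no pair could pass (smallest adjusted p 0.236 and 0.325). How often ratios of other gene pairs separate without overlap was not computed for any comparison. The ratio of the class medians was 3.03, 3.09 and 4.37 in irradiated CD24- cells, 4.71, 4.63 and 5.20 in irradiated CD24+ cells and 5.37 and 4.91 in non-irradiated CD24+ cells, with irradiated CD24- replicate 3 nearest to the CD24+ libraries.

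**Figure D3:**
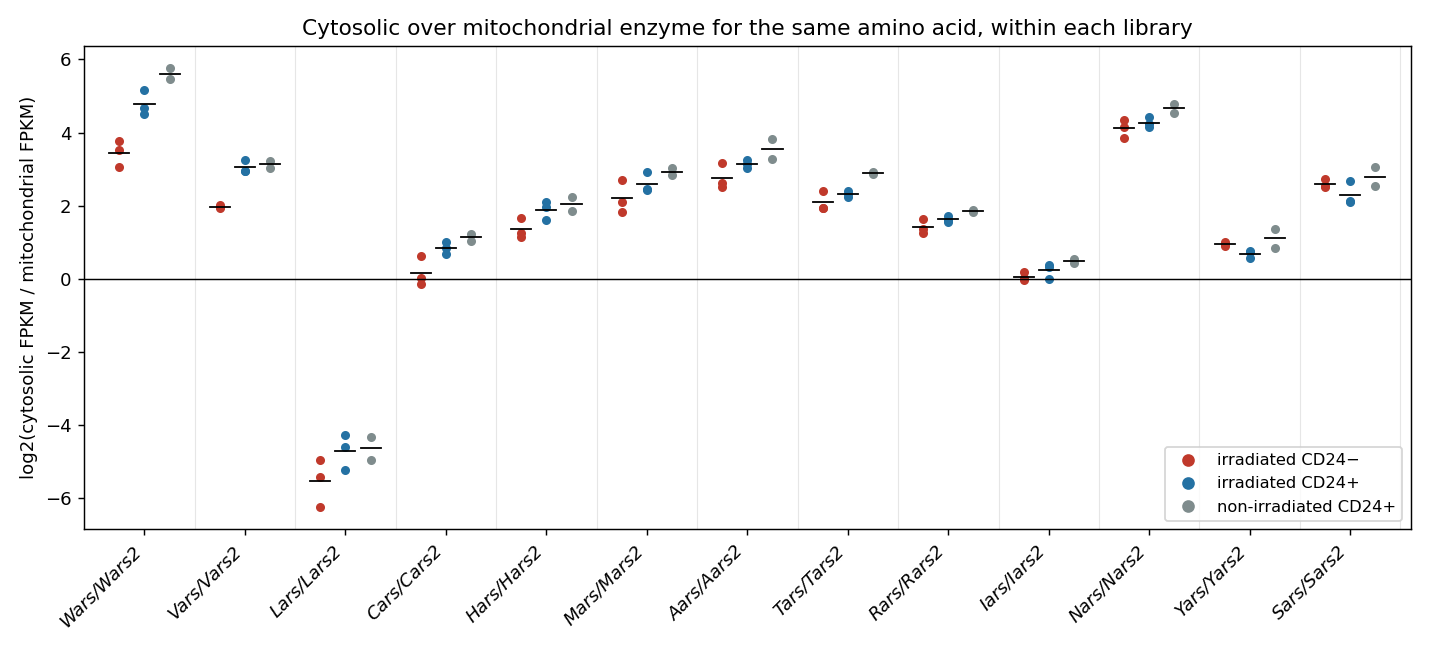
Log2 of cytosolic over mitochondrial FPKM for the 13 amino acids with a gene of each kind, a point for each library of irradiated CD24- (left), irradiated CD24+ (middle) and non-irradiated CD24+ cells (right), with bars at group means. Wars/Wars2 and Vars/Vars2, on the left, have all irradiated CD24- libraries below all CD24+ libraries, and Lars/Lars2 lies far below 0 because of the high Lars2 level.

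The second comparison asks what irradiation changed inside the Paneth gate. No synthetase gene passed the test between irradiated and non-irradiated CD24+ cells in limma, in either direction, where 0% of the 11190 genes did. At an unadjusted p under 0.05, 4 members were higher (Fars2, Wars2, Tars2 and Farsa) and none lower, where 12.2% and 0.536% of all genes were. All 36 members had a log2 fold change above 0 as deposited (0.05 to 0.66), and the median gene stood at 0.32. After median-of-ratios scaling, which puts the median gene at -0.03, 15 of the 20 cytosolic and 4 of the 16 mitochondrial genes lay below 0. Of these, 5 cytosolic genes had an unadjusted p under 0.05 in limma, for which the share over all genes was not computed. At the adjusted threshold no member passed, where 0.0268% of all genes passed downward. In 7 members every irradiated CD24+ library lay above both non-irradiated ones, as in 34.2% of all genes, and in none did every one lie below, as in 1.13%. The mitochondrial median was 0.46 and the cytosolic one 0.26. Markers of other cell types also had different levels in these groups, although no marker of the 3 lists given next passed the test as deposited. The 7 enteroendocrine markers were all above 0 (median log2 fold change 2.04, 6 of them without overlap) and summed to 246 to 1054 FPKM in irradiated CD24+ cells, against 121 to 124 in non-irradiated CD24+ cells. All 8 tuft markers were below 0 without overlap and summed to 6.19 to 16.8 FPKM in irradiated CD24+ cells, against 22.1 to 29.1 in non-irradiated CD24+ cells. The 6 stem cell markers summed to 991 to 1245 FPKM in irradiated CD24+ cells, against 551 to 842 in non-irradiated CD24+ cells. No marker of these lists was at 0 in all libraries of either group, and their part in the synthetase values was not tested.

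Fars2 was at 10.3, 11.7 and 11.3 FPKM in irradiated CD24+ cells, against 5.61 and 7.83 in non-irradiated CD24+ cells, with a log2 change of 0.66 ± 0.23 (SE; adjusted p = 0.348). Tars2 (threonine) was at 5.38, 7.56 and 6.85 FPKM in irradiated CD24+ cells, against 2.80 and 5.01 in non-irradiated CD24+ cells. Wars2 (tryptophan) was at 2.30, 2.81 and 2.43 FPKM in irradiated CD24+ cells, against 1.04 and 1.78 in non-irradiated CD24+ cells. None of these 3 overlapped between the groups.

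Among cytosolic genes Farsa was at 11.8, 17.5 and 18.5 FPKM in irradiated CD24+ cells, against 7.18 and 13.4 in non-irradiated CD24+ cells, and overlapped. Its partner subunit Farsb was at 24.7, 29.5 and 30.8 FPKM in irradiated CD24+ cells, against 13.4 and 25.6 in non-irradiated CD24+ cells, and overlapped too. Dars, the aspartate enzyme, was at 22.2, 25.2 and 26.3 FPKM in irradiated CD24+ cells, against 14.9 and 21.1 in non-irradiated CD24+ cells, without overlap. Except for Lars2, every member was lower in non-irradiated replicate 1 than in replicate 2. The median-of-ratios factors of these 2 libraries were 0.527 and 0.865, against 0.858 to 0.991 in irradiated CD24+ cells. Without non-irradiated replicate 2, replicate 1 stood alone and was assumed to vary like the libraries of the other groups, which supply the spread. In that fit 11 cytosolic and 12 mitochondrial genes were called higher, where 46.4% of all genes were. Without replicate 1 none was called.

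The third comparison, of irradiated CD24- with non-irradiated CD24+ cells, joins gate and irradiation. As deposited, 9 of 20 cytosolic and 13 of 16 mitochondrial genes were higher in irradiated CD24- cells, where 65.7% of all genes were, and none was lower, where 4.99% were. At an unadjusted p under 0.05, 22 members were higher, against 68.2% of all genes, and 1, Wars, was lower, against 5.28%. The groups did not overlap in 24 members, all higher, as in 70.1% of all genes, and no member was lower without overlap, as 6.17% of all genes were. The median gene had a log2 fold change of 0.88, against a cytosolic median of 0.54 and a mitochondrial median of 0.87. Fars2 had the largest change, at 1.64 ± 0.23 (SE; adjusted p = 0.000118), and Qars led the cytosolic genes at 1.43 ± 0.27 (SE; adjusted p = 0.000754). Wars stood at -0.79 ± 0.35 (SE; adjusted p = 0.0583) and was called lower without non-irradiated replicate 1, a fit in which replicate 2 stood alone and the other groups supplied the spread. In that fit 2 cytosolic genes were lower, where 5.15% of all genes were, and 2 cytosolic and 7 mitochondrial genes higher, where 49.5% were. After median-of-ratios scaling 1 cytosolic and 1 mitochondrial gene were higher and 11 cytosolic genes lower, where 29.6% and 22% of all genes were, and as TPM 35 members were higher and none lower, where 93.2% and 1.89% were. Without replicate 2 of the non-irradiated cells, with replicate 1 alone, 15 cytosolic genes were called higher, where 74.5% of all genes were.

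Genes that act beside the synthetases were followed between the gates in irradiated mice. Of 13 other charging genes 5 were higher and none lower as deposited (median log2 fold change 0.28, against 0.51 over all genes), where 48.6% and 7.27% of all genes were, 2 were higher and 5 lower after median-of-ratios scaling, where 32.4% and 24.4% were, and all 13 were higher as TPM, where 89.4% were. Mtfmt, which formylates the initiator methionyl-tRNA of mitochondria, was at 8.38, 7.17 and 6.27 FPKM in irradiated CD24- cells, against 2.56, 3.11 and 2.81 in irradiated CD24+ cells (log2 fold change 1.11 ± 0.19 SE, adjusted p = 0.000463). Sepsecs, which completes the selenocysteine transfer RNA, also stood at 1.11 ± 0.19 (SE; adjusted p = 0.000602), and Pstk, which acts just before it, at 0.74 ± 0.21 (SE; adjusted p = 0.0107). Pet112, a subunit of the amidotransferase that makes mitochondrial glutaminyl-tRNA, stood at 0.66 ± 0.21 (SE; adjusted p = 0.0196). These 4 genes were also above 0 after median-of-ratios scaling, at 0.63, 0.60, 0.24 and 0.17.

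Translation factors use the charged transfer RNAs at the ribosome. Of 11 mitochondrial translation factors 6 were higher and none lower as deposited (median 0.70), near the 48.6% of all genes called higher, and 11 were higher as TPM, where 89.4% of all genes were. Tufm, Mtif3 and Gfm2 were still called higher after median-of-ratios scaling, where 32.4% of all genes were. Tufm, the mitochondrial elongation factor that delivers charged transfer RNA, was at 117, 114 and 106 FPKM in irradiated CD24- cells, against 38.6, 48.0 and 53.7 in irradiated CD24+ cells (log2 fold change 1.26 ± 0.26 SE, adjusted p = 0.00168). Mtif3, an initiation factor, stood at 1.18 ± 0.17 (SE; adjusted p = 0.000197), Gfm1, an elongation factor, at 0.98 ± 0.28 (SE; adjusted p = 0.0116), and Ict1, a rescue factor of stalled mitochondrial ribosomes, at 0.91 ± 0.26 (SE; adjusted p = 0.0121). Of 9 cytosolic elongation and termination factors none passed in limma as deposited, adjusted or unadjusted (median 0.31), where 48.6% of all genes were higher adjusted and 52.5% unadjusted. After median-of-ratios scaling 1 was lower, where 24.4% of all genes were, and as TPM all 9 were higher, where 89.4% were. The smallest adjusted p among them belonged to Eef2, which moves the ribosome along (0.68 ± 0.32 SE, adjusted p = 0.0895), and the next to Etf1, which ends translation (0.31 ± 0.22 SE, adjusted p = 0.258). Whether the lists differ from each other was not tested.

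Of 12 genes that modify or process mitochondrial transfer RNAs 2 were higher as deposited, where 48.6% of all genes were, and 1 was lower, where 7.27% were. After median-of-ratios scaling none was higher and 3 were lower, where 32.4% and 24.4% of all genes were, and as TPM 11 were higher, where 89.4% were. The 2 higher as deposited were Nsun3 (0.79 ± 0.18 SE, adjusted p = 0.00348) and Cdk5rap1 (0.77 ± 0.19 SE, adjusted p = 0.00561). Trit1, which adds an isopentenyl group beside the anticodon, was lower. It was at 4.25, 3.97 and 3.53 FPKM in irradiated CD24- cells, against 6.88, 7.53 and 7.41 in irradiated CD24+ cells, or a log2 change of -0.75 ± 0.16 (SE; adjusted p = 0.00233) that was -1.20 after median-of-ratios scaling and 0.32 as TPM.

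Known targets of the amino acid response, to which several cytosolic synthetases belong, split in both directions. Of 20 tested, 5 were higher and 7 lower in irradiated CD24- cells as deposited, where 48.6% and 7.27% of all genes were. After median-of-ratios scaling 2 were higher and 12 lower, where 32.4% and 24.4% of all genes were, and as TPM 11 were higher and 1 lower, where 89.4% and 2.32% were. Slc7a11 lay below the filter. Pycr1 (proline synthesis) was at 0.938, 0.5003 and 0.354 FPKM in irradiated CD24- cells, against 7.64, 9.41 and 5.78 in irradiated CD24+ cells (log2 fold change -2.42 ± 0.22 SE, adjusted p = 1.12e-05). Mthfd2 (mitochondrial folate cycle) stood at -1.57 ± 0.17 (SE; adjusted p = 2.97e-05). Slc3a2, the heavy chain of amino acid transporters, was at 63.2, 92.5 and 79.2 FPKM in irradiated CD24- cells, against 16.8, 17.4 and 15.1 in irradiated CD24+ cells (log2 fold change 2.17 ± 0.24 SE, adjusted p = 3.28e-05). Cth (cysteine synthesis) stood at 1.95 ± 0.25 (SE; adjusted p = 7.89e-05). The other lower genes were Phgdh and Psat1 (serine synthesis), Slc7a5 (a transporter of large amino acids), Asns (asparagine synthesis) and Pck2, of which Psat1, Asns and Pck2 lay above 0 as TPM, and the other higher ones were Aldh18a1, Ddit3 and Trib3, which were named after their values were seen.

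The 3 cytosolic genes with the letters TTNCATCA in the promoters shown above did not pass the test between the gates as deposited. Aars stood at a log2 fold change of 0.23, Gars at 0.41 and Tars at 0.31 (adjusted p = 0.400, 0.183 and 0.280). All 3 were below 0 after median-of-ratios scaling, at -0.32, -0.15 and -0.24, without passing. As TPM all 3 were called higher, at 1.45, 1.66 and 1.54, where 89.4% of all genes were. Asns was at 31.6, 27.0 and 37.1 FPKM in irradiated CD24- cells, against 71.8, 74.1 and 71.5 in irradiated CD24+ cells. It was 1 of the 7 response targets called lower as deposited, beside 5 called higher. Atf4 itself was at a log2 change of 0.03 ± 0.22 (SE; adjusted p = 0.921), or -0.53 after median-of-ratios scaling.

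Of 11 tested genes of Myc and growth 2 were higher and 1 lower as deposited, where 48.6% and 7.27% of all genes were. After median-of-ratios scaling 1 was higher and 8 lower, where 32.4% and 24.4% of all genes were, and as TPM 6 were higher and 0 lower, where 89.4% and 2.32% were. Myc, a transcription factor of growth genes, was at 8.56, 5.97 and 3.04 FPKM in irradiated CD24- cells, against 10.6, 14.4 and 11.8 in irradiated CD24+ cells (log2 fold change -1.03 ± 0.32 SE, adjusted p = 0.0178, and 0.087 as TPM). Its partner Max stood at 1.99 ± 0.28 (SE; adjusted p = 0.000133), and Odc1, which starts polyamine synthesis, at 0.86 ± 0.29 (SE; adjusted p = 0.0276).

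**Figure D4:**
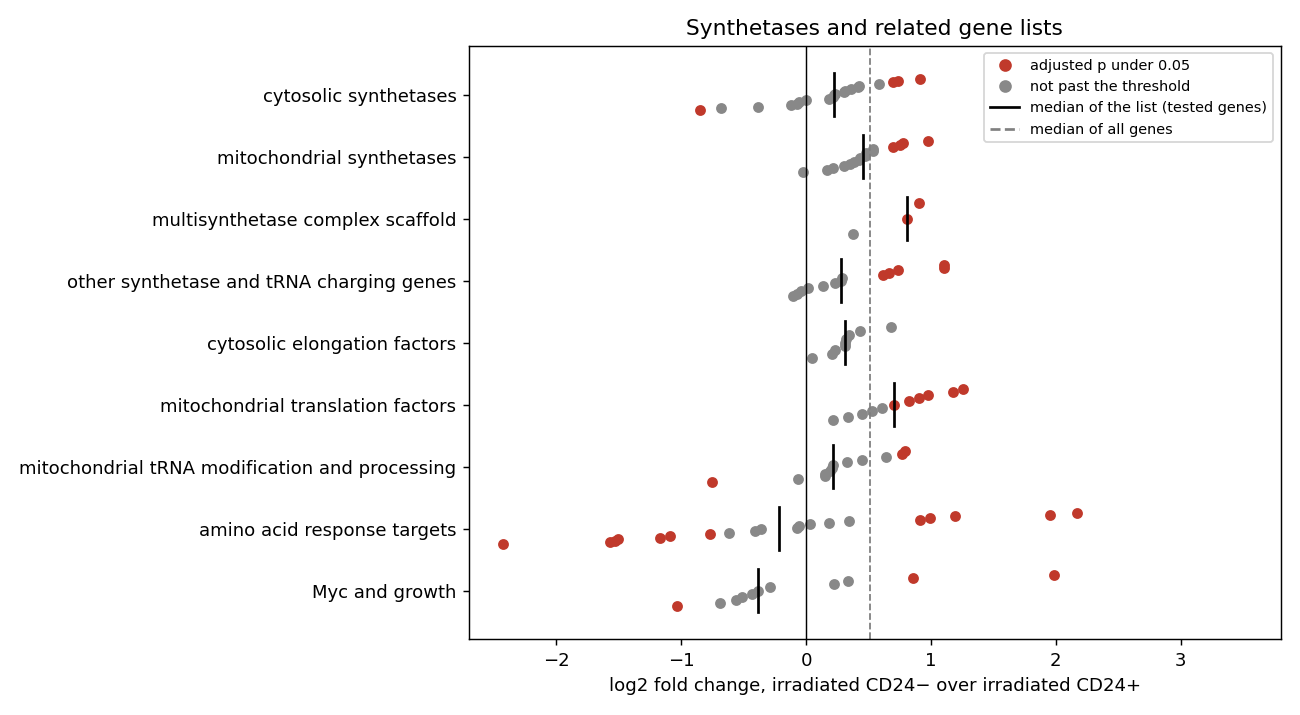
Log2 fold changes, irradiated CD24- over irradiated CD24+ cells, of the synthetase genes and of tested genes in 7 related lists, where a black bar is the list's median and the dashed line the median of all genes (0.51). Mitochondrial translation factors have their median at 0.70, cytosolic synthetases at 0.22, and the amino acid response targets reach from -2.42 to 2.17.

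The spans of several members overlap another gene in the mouse annotation (RefSeq, GRCm38.p6, which is not the build of the data). Protein-coding neighbours were Ddx19b for Aars, Sgpp2 for Farsb, Ddit3 for Mars, Wdr25 for Wars, Rab3gap2 for Iars2 and Orc3 for Rars2. Hars and Hars2 overlap each other. The library kit keeps no strand, so reads from a shared stretch cannot be assigned by strand. Whole gene spans were compared, and whether exons are shared was not checked. Ddit3 was itself higher in irradiated CD24- cells, at 9.08, 10.4 and 19.7 FPKM, against 4.26, 5.61 and 4.77 in irradiated CD24+ cells.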

How the data were processed

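RNA libraries (Illumina TruSeq RNA v2, total RNA of sorted cells) were made from 8 samples, per the labels' protocols. The deposited table holds FPKM computed by the authors for 24015 entries. Per the submitters' processing notes TopHat2 2.1.0, StringTie 1.3.4 and build mm9 were used, and no annotation or filter is named in the sources used here. Read depth is likewise unstated, and from the smallest steps between low values libraries differed in depth by up to 1.30-fold.

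Genes with at least 1 FPKM in at least 2 libraries (11190) were transformed as log2(FPKM + 1). All 8 libraries were fitted with limma 3.58.1 (R 4.3.3; lmFit, contrasts.fit, eBayes with trend), with genes called where the p adjusted by Benjamini-Hochberg was under 0.05 over all genes tested, and the procedure was tested on simulated data. SE is limma's moderated standard error. No label ties replicates to separate mice, and the p-values then reflect just the variation among these libraries, which may be technical. Residuals of irradiated CD24- and CD24+ libraries with the same number correlated across genes at r = 0.366, 0.231 and 0.402, so the numbers were taken to pair them, and a fit with number as a block was compared.

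The members and gene lists were chosen with earlier results of these data known. Named members were, for each class, the 6 with the largest change among those past the threshold between the irradiated gates, filled by the smallest p, and the 3 with the smallest p between CD24+ groups. Members going the other way, up to 4 called genes of each list (the 2 with the smallest p where none was), and the sort genes and Lyz1 were added, and other names were chosen after values were seen. Alternatives were a pseudocount of 0.1, no filter or 5 FPKM, TPM, median-of-ratios, quantile normalization, array weights, a robust fit, only the groups compared, and leaving out each library. Figures were drawn with matplotlib.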

Additional observations from a re-analysis of the deposited data

How the results depend on the processing

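In the comparisons with irradiated CD24- cells, direction and calls depended on library scaling more than on any other choice tried. Between the CD24+ groups no scaling gave a called member, although directions changed with it. Calls arose there only when non-irradiated replicate 2 was left out. Between irradiated CD24- and irradiated CD24+ cells as deposited, 3 cytosolic and 4 mitochondrial genes were called higher, where 48.6% of all genes were. Of the 2 classes 1 and 0 were called lower, where 7.27% were. As TPM 18 and 16 were higher and 0 lower, where 89.4% and 2.32% of all genes were. By median of ratios 1 and 1 were higher and 10 and 2 lower, where 32.4% and 24.4% were. By quantile normalization 0 and 0 were higher and 18 and 2 lower, where 25.2% and 30.5% were. No filter gave 0 cytosolic genes lower and 2 mitochondrial genes higher, where 3.73% and 20.8% of all genes were. Fitting only the 2 groups gave 3 cytosolic genes lower and 7 mitochondrial genes higher, where 8.06% and 55.1% of all genes were. Array weights gave 7 and 11 higher and 3 cytosolic genes lower, where 62.9% and 14.5% were. The replicate block gave 2 cytosolic genes lower, where 8.18% of all genes were, and changed no other call of this comparison. With only the 2 groups it gave 5 and 9 higher and 2 cytosolic genes lower, where 55.7% and 8.57% were. Leaving out 1 irradiated library gave 2 to 10 mitochondrial genes higher, and Qars and Sars alone among the cytosolic genes. At most Wars was lower in these fits. Over all genes they gave 39% to 47.4% higher and 5.34% to 7.61% lower. Class differences were -0.34 to -0.17 around -0.23. The class difference was -0.66 by quantile normalization.

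Of the 36 members 24 lay below 0 by median of ratios and 0 as TPM, against 8 as deposited. Those that turned round and passed the test as deposited or under the alternative were, by quantile normalization, Aars (-0.70), Dars (-0.77), Farsa (-0.49), Farsb (-0.78), Gars (-0.71), Hars (-0.60), Kars (-0.66), Nars (-0.53), Qars (-0.27), Rars (-0.56), Sars (-0.22), Tars (-0.73), Yars (-0.57), Iars2 (-0.68) and Rars2 (-0.086), by median of ratios Dars (-0.37), Farsb (-0.33), Yars (-0.31) and Iars2 (-0.37), and as TPM Cars (1.10), Eprs (1.15), Iars (1.21), Lars (0.82), Mars (1.09), Wars (0.40) and Yars2 (1.12).

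Between irradiated and non-irradiated CD24+ cells, leaving out 1 library gave 0 to 11 cytosolic and 0 to 12 mitochondrial genes higher, none lower, and class differences of -0.20 to -0.12. The class difference was -0.30 at a pseudocount of 0.1, -0.11 as TPM, -0.28 by median of ratios and -0.27 by quantile normalization.

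Between irradiated CD24- and non-irradiated CD24+ cells, 9 cytosolic and 13 mitochondrial genes were called higher as deposited, where 65.7% of all genes were. These became 19 cytosolic as TPM and 1 and 1 by median of ratios, where 93.2% and 29.6% of all genes were. They became 0 and 3 by quantile normalization and 4 cytosolic with array weights, where 24.4% and 49.9% were. Cytosolic genes lower became 11 by median of ratios and 18 by quantile normalization, where 22% and 26% of all genes were lower. They became 1 with a filter at 5 FPKM and 1 with the replicate block, where 3.67% and 5.03% were. By quantile normalization 1 mitochondrial gene was lower too. Leaving out 1 library gave 2 to 15 cytosolic and 7 to 15 mitochondrial genes higher, 0 to 2 cytosolic and 0 mitochondrial genes lower, and class differences of -0.50 to -0.28. Over all genes, leaving out 1 irradiated library gave 58.3% to 67.6% higher and 4.13% to 5.02% lower. The class difference was -0.59 at a pseudocount of 0.1, -0.10 as TPM, -0.57 by median of ratios and -0.95 by quantile normalization. Of the 36 members 23 lay below 0 by median of ratios, against 4 as deposited. Only 7 genes were followed singly here, of which Qars (-0.13), Farsa (-0.22) and Sars (-0.44) turned round by quantile normalization and Sars by median of ratios (-0.091), each called as deposited or under the alternative. The cause of these changes was not tested. Depth per library is unknown, so no counting interval could be given.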
